A study of Mus musculus with 20 samples.

Results

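The T cell receptor (TCR) repertoires of CD8 T cells from 4 BIT mice and 4 wild-type (WT) mice were compared for both receptor chains. These 8 of the 20 samples of the series were taken by genotype and replicate number, as BIT replicates 1, 2, 4 and 5 and WT replicates 1 to 4, and BIT replicate 3 was left out because its library held only 475 in-frame TCRα clones. BIT mice carry 2 copies of an allele in which the coding sequence of Psmb11, the gene for the thymoproteasome subunit β5t, stands in place of that of Psmb8, the gene for the immunoproteasome subunit β5i. WT mice carry neither change, and both groups are on the C57BL/6 background. Mice lacking β5i (β5i-KO, n = 5) and mice lacking β5t (β5t-KO, n = 4) were in the same edgeR fits. These fits held 17 libraries, so their p values do not rest on the 8 mice alone. Several BIT mouse lines were made, and the sample labels do not say from which line a mouse came. The cells were sorted as TCRβ-high CD4-CD8+ cells from male mice 9 to 12 weeks old, at 1000000 cells a mouse, from lymph nodes per the labels and from lymph nodes and spleens per the protocol. TCR libraries do not measure Psmb8 or Psmb11, so the genotype could not be checked in these data.

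Each TCR chain gene is assembled in the developing thymocyte by V(D)J recombination. TCRα joins a V gene to a J gene, TCRβ joins V, D and J genes, and bases that no gene encodes can be inserted at the joins. The join lies in CDR3, the loop that touches the peptide held by MHC. TCRα can rearrange again and again on the same chromosome, moving to V genes farther from J and to J genes farther from V. Positive selection on cortical epithelial cells, which express β5t and so display peptides cut by thymoproteasomes, keeps CD8 T cells whose receptor binds those peptides on MHC class I. In BIT mice β5t is also made in antigen-presenting cells that would otherwise use β5i. The question addressed here was whether the receptors of the CD8 T cells that form in these mice differ from those of WT mice in gene usage, gene pairing or CDR3 make-up.

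A clonotype was a V gene, J gene and CDR3 amino acid sequence, counted once per mouse, and shares are given as percent of in-frame clonotypes or of unique molecules (tagged transcripts). BIT libraries mostly held more clonotypes than WT libraries. In-frame TCRα clonotypes numbered 2454, 5784, 15092 and 16876 in WT replicates 1 to 4 and 26272, 9362, 18472 and 22895 in BIT replicates 1, 2, 4 and 5. TCRβ clonotypes ranged from 919 to 17570 in WT and from 13569 to 34508 in BIT libraries. Molecules per in-frame TCRα clone ranged from 19.04 to 30.1 in WT and from 7.80 to 13.4 in BIT libraries, without overlap. WT replicate 1 held the fewest clonotypes of both chains. It also differed in V assignment, since 26.0% of its in-frame TCRα clones listed several V genes, against 34.6% to 37.1% in the other 7 libraries. Receptors of other cell types were rare. TRAV11 joined to TRAJ18, the chain of invariant NKT cells, made up 0% to 0.0346% of TCRα clonotypes in WT and 0% to 0.0266% in BIT mice. TRAV1 joined to TRAJ33, the chain of MAIT cells, made up 0% to 0.0398% in WT and 0.0217% to 0.0427% in BIT mice. TRDV genes, used by γδ T cells but also able to join TRAJ genes, made up 0.448% to 0.735% in WT and 0.639% to 0.856% in BIT mice.

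The CDR3 sequences below show the V-J pairs that the pairing results turn on, each by the in-frame nucleotide CDR3 found in the most of the 8 libraries. They are written 5′ to 3′ in lower case, with the bases assigned to neither V, D nor J in capitals. The first 3 TCRα pairs and the 3 TCRβ pairs are those with the smallest p in their families. The last 2 TCRα pairs, both of TRAV12, were added after their values were seen.
TRAV6-TRAJ52: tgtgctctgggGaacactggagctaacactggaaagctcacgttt
TRAV12-TRAJ15: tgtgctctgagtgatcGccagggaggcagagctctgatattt
TRDV1-TRAJ49: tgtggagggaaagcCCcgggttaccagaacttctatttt
TRAV12-TRAJ12: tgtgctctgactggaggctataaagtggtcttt
TRAV12-TRAJ9: tgtgctctgatgggctacaaacttaccttc
TRBV1-TRBJ2-2: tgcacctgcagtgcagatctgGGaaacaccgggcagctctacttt
TRBV3-TRBJ2-5: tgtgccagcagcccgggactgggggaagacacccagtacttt
TRBV5-TRBJ1-2: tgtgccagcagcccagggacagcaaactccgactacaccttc
All 3 TRAV12 sequences were found in 8 of 8 libraries and held 0 or 1 inserted base. The TRAV6-TRAJ52 sequence was found in 3 BIT libraries and no WT library, and the TRDV1-TRAJ49 sequence in 2 BIT libraries and no WT library. The TCRβ sequences were found in 1 to 3 libraries.

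TRAV12, the most used V subgroup of the TCRα repertoire here, made up a smaller share of the receptors of BIT mice. TRAV12 held 32.2%, 29.7%, 26.2% and 24.0% of TCRα clonotypes in WT replicates 1 to 4 and 22.0%, 22.99%, 23.2% and 22.8% in BIT replicates 1, 2, 4 and 5. Every BIT mouse lay below every WT mouse, although the lowest WT mouse stood less than 1 percentage point above the highest BIT mouse. The mean was 28.0% ± 3.61 in WT and 22.7% ± 0.518 in BIT mice (SD, n = 4 each), a log2 difference of -0.29 (95% interval -0.45 to -0.13, edgeR's adjusted p = 0.0200). Weighted by molecules, TRAV12 held 34.8%, 33.5%, 31.8% and 30.2% in WT and 26.2%, 25.3%, 26.0% and 28.3% in BIT mice. These molecule shares also did not overlap, and edgeR gave a log2 difference of -0.30 with an adjusted p of 0.000626.

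TRAV6, a subgroup of many near-identical copies along the locus, was higher in BIT mice. It held 4.36%, 4.62%, 5.51% and 6.01% of clonotypes in WT and 6.93%, 6.32%, 6.59% and 6.71% in BIT mice. The groups did not overlap. The log2 difference was 0.34 (95% interval 0.12 to 0.57, edgeR's adjusted p = 0.0465), or 1.27-fold. TRAV6 kept its call in 6 of 19 alternative settings. Among others it lost its call where TMM scaling was used (0.14, adjusted p = 0.252) and in molecules (0.32, adjusted p = 0.108).

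edgeR called 2 of 21 V subgroups (9.52%), TRAV12 and TRAV6, 1 in each direction, while DESeq2 also called 2, TRAV12 among them and TRAV6 not. edgeR gave an unadjusted p under 0.05 for 9 subgroups, 8 of them with a positive difference. Without overlap between the groups stood 5 of the 21 subgroups (23.8%), namely TRAV12, TRAV6, TRAV21, TRAV4 and TRAV15. TRAV21 held a mean of 0.302% in WT and 0.463% in BIT mice, TRAV4 2.77% and 3.63%, and TRAV19 1.06% and 1.43%, each with an edgeR adjusted p of 0.0835. The median log2 difference over all subgroups was 0.23 with scaling by library size and 0.02 with TMM. Against the TMM scale TRAV12 stood at -0.53 (adjusted p = 0.0161). Both calls were lost without some single mice and among clones that listed 1 V gene alone, a setting with fewer clones. Among clones that listed 1 V gene alone the TRAV12 difference was -0.25 and the TRAV6 difference 0.24, both with an edgeR adjusted p of 0.0811. The TRAV12 call was lost without WT replicate 1 (log2 difference -0.23, edgeR's adjusted p = 0.137), WT replicate 2 (0.109), BIT replicate 1 (0.0801) or BIT replicate 5 (0.0520), and the TRAV6 call was lost without any 1 of 5 mice, with adjusted p up to 0.157.

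**Figure D1:**
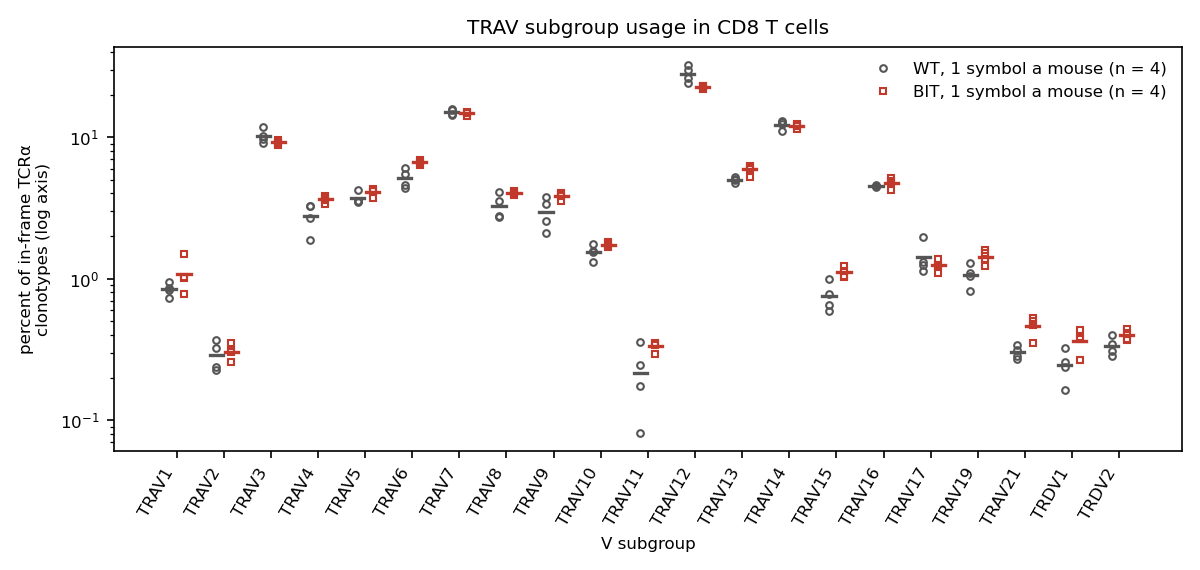
Share of each V subgroup among in-frame TCRα clonotypes (log axis) in 4 WT mice (grey circles) and 4 BIT mice (red squares), with a bar at each group's mean. TRAV12 is lower and TRAV6 higher in all 4 BIT mice than in all 4 WT mice, and most other subgroups overlap.

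Library depth moved with these shares. Among WT mice TRAV12 stood higher and TRAV6 lower in the libraries with fewer clonotypes, and BIT libraries mostly held more. BIT replicate 2, with 9362 clonotypes, held 22.99% TRAV12, against 26.2% in WT replicate 3 and 24.0% in WT replicate 4, which held 15092 and 16876 clonotypes. After thinning all fitted libraries to 13519 TCRα molecules the TRAV12 difference was -0.26 (edgeR's adjusted p = 0.00752) and the TRAV6 difference was 0.25 (adjusted p = 0.0892). With the 8 libraries thinned to 71357 molecules, TRAV12 held 32.2%, 29.9%, 26.8% and 24.7% in WT and 22.9%, 23.03%, 23.4% and 23.7% in BIT mice, still without overlap. Thinned libraries still differed in clonotypes, from 2454 to 20838, and the part of depth in the result was not tested beyond this.

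**Figure D2:**
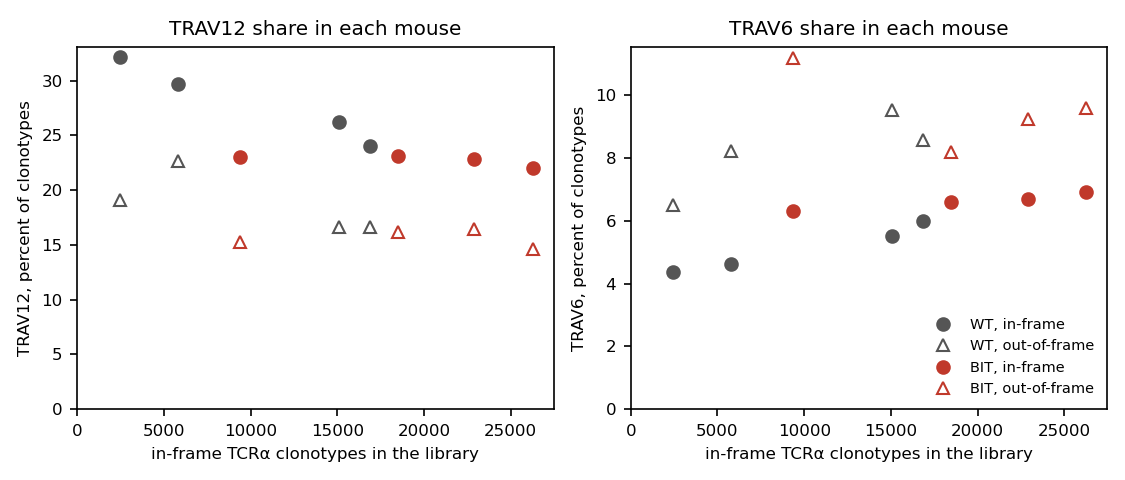
TRAV12 (left) and TRAV6 (right) as percent of clonotypes in each mouse, against the number of in-frame TCRα clonotypes in its library. WT mice are grey and BIT mice red, filled circles are in-frame clonotypes and open triangles clones out of frame or with a stop codon. The 4 WT mice span 24.0% to 32.2% TRAV12 in-frame and the 4 BIT mice 22.0% to 23.2%.

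Rearrangements that are out of frame or hold a stop codon code for no receptor and so are not selected for what they bind. Both kinds are counted together here as out of frame. Among them TRAV12 held 19.1%, 22.6%, 16.6% and 16.6% in WT and 14.6%, 15.3%, 16.2% and 16.4% in BIT mice. These groups did not overlap either, as for 3 of the 22 out-of-frame V subgroups in all (13.6%). The counts were small, from 44 to 475 TRAV12 clones. The log2 difference was -0.21 (95% interval -0.41 to -0.01, unadjusted p = 0.0376, edgeR's adjusted p = 0.321). The interval holds both 0.01 lower and the in-frame value of -0.29, so these data do not separate the frames, and the difference between frames was not tested. Out-of-frame TRAV6 held 6.52% to 9.53% in WT and 8.20% to 11.2% in BIT mice. Its log2 difference was 0.12 (95% interval -0.13 to 0.38, edgeR's adjusted p = 0.728).

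At the level of single V genes edgeR called 2 of 93 (2.15%), both lower in BIT mice, and DESeq2 called 1. TRAV12-1, at chr14:53775648-53776195 on GRCm39, is the most used V gene of the chain. It held 19.2%, 18.4%, 15.3% and 14.9% of clonotypes in WT and 11.1%, 12.7%, 13.1% and 11.9% in BIT mice, without overlap. The log2 difference was -0.47 (95% interval -0.71 to -0.22, edgeR's adjusted p = 0.0205). In molecules it held 22.7%, 23.5%, 21.5% and 21.8% in WT and 15.2%, 15.2%, 16.9% and 16.99% in BIT mice, a gap wider than the spread within either group.

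TRAV7D-5, at chr14:53073315-53073844, lies in a duplicated block of the V locus. It held 4.77%, 3.41%, 2.96% and 2.87% in WT and 1.8004%, 1.59%, 2.38% and 1.97% in BIT mice. The groups did not overlap, with a log2 difference of -0.78 (95% interval -1.18 to -0.38, edgeR's adjusted p = 0.0205). Both genes have near-identical neighbours. Of 18960 clones given to TRAV12-1, 84.9% listed TRAV12-3 as well, and of 2945 given to TRAV7D-5, 49.7% listed TRAV7N-5. WT replicate 1 again stood apart, with several V genes for 61.0% of its TRAV12-1 clones against 83.3% to 87.0% in the other 7 libraries. For TRAV7D-5 this share was 14.2%, 27.8%, 59.8% and 33.5% in WT and 53.5% to 64.5% in BIT mice, so V assignment moved with the group there, and its part in the result was not tested. Among clones that listed 1 V gene alone neither call held, with log2 differences of -0.93 for TRAV12-1 (adjusted p = 0.206) and -1.43 for TRAV7D-5 (adjusted p = 0.116). Without WT replicate 1 they were -0.41 and -0.65, both with an adjusted p of 0.103, and both calls were also lost without WT replicate 2 or BIT replicate 1, 2 or 5.

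TRAV12-1 was the TRAV12 gene that was called. TRAV12-2, the next most used copy, held a mean of 6.11% ± 1.16 in WT and 6.03% ± 0.465 in BIT mice (log2 difference 0.01, 95% interval -0.24 to 0.26, edgeR's adjusted p = 0.997). Of 7 TRAV12 genes tested, 5 had a negative and 2 a positive difference, beside 28 negative and 65 positive among all 93. Of 13 TRAV6 genes, 12 had a positive difference and none was called. TRAV6-6 came closest, at 0.733%, 1.23%, 1.59% and 1.57% in WT and 2.14%, 2.01%, 1.96% and 2.07% in BIT mice (log2 difference 0.56, edgeR's adjusted p = 0.0615). Nearly all TRAV6-6 clones (97.9%) also listed TRAV6D-6. TRAV15-2-DV6-2 (0.129% in WT, 0.230% in BIT mice) and TRAV4-4-DV10 (1.20% and 1.75%) had the same adjusted p. Groups without overlap were seen for 15 of the 93 V genes (16.1%).

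TRAJ usage gave no call. edgeR called 0 of 43 TRAJ genes (0%), DESeq2 called 0, and 3 had an unadjusted p under 0.05. These were TRAJ57 (1.13% in WT, 1.41% in BIT mice, log2 difference 0.28, 95% interval 0.06 to 0.50), TRAJ18 (1.81% and 1.57%, difference -0.22) and TRAJ16 (1.31% and 1.14%, difference -0.25), each with an adjusted p of 0.440. TRAJ22, the J gene with the largest mean share, held 5.82% in WT and 5.70% in BIT mice. For 42 of the 43 genes the 95% interval lay within 1 log2 unit of no difference, and TRAJ2 was the exception. The mean rank of the J gene along the locus was 33.9 ± 0.685 in WT and 33.4 ± 1.03 in BIT mice (exact permutation p = 0.371, adjusted p = 0.874).

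V subgroups were then counted by the J gene they were joined to. Of 588 pairs of V subgroup and TRAJ gene, edgeR called 5 (0.85%), 2 higher and 3 lower in BIT mice, and DESeq2 called 0. All 3 lower pairs were of TRAV12, with TRAJ15, TRAJ12 and TRAJ9. TRAV12-TRAJ15 held 1.79%, 1.76%, 1.28% and 1.17% of clonotypes in WT and 0.963%, 1.17%, 0.980% and 1.00% in BIT mice (log2 difference -0.46, edgeR's adjusted p = 0.0486). Its groups overlapped, since BIT replicate 2 lay just above WT replicate 4. TRAV12-TRAJ12 held 1.34%, 1.31%, 0.987% and 0.990% in WT and 0.803%, 0.694%, 0.817% and 0.795% in BIT mice (-0.47), and TRAV12-TRAJ9 means were 1.13% ± 0.397 and 0.715% ± 0.104 (-0.48), both with the same adjusted p and without overlap, although TRAV12-TRAJ9 of BIT replicate 4 (0.866%) nearly reached WT replicate 3 (0.868%).

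Over all 43 TRAV12 pairs, 29 had a negative difference (median -0.19), beside 233 of all 588 pairs (median 0.08). With the J genes split at the middle of their order, 20 of 22 TRAV12 pairs from TRAJ31 to TRAJ2, on the side of the constant region, had a negative difference (median -0.34). From TRAJ58 to TRAJ32, on the V side, 9 of 21 had one (median 0.03). Among pairs of every V subgroup the medians were 0.04 and 0.14. TRAV12 clonotypes with a J gene on the side of the constant region held 22.3%, 20.6%, 17.2% and 16.8% of all clonotypes in WT and 13.7%, 14.8%, 15.6% and 14.2% in BIT mice, without overlap. Those with a J gene on the V side held 9.90%, 9.09%, 9.08% and 7.28% in WT and 8.34%, 8.17%, 7.57% and 8.59% in BIT mice, which overlapped. This split was made after the values were seen, and the difference between the sides was not tested.

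**Figure D3:**
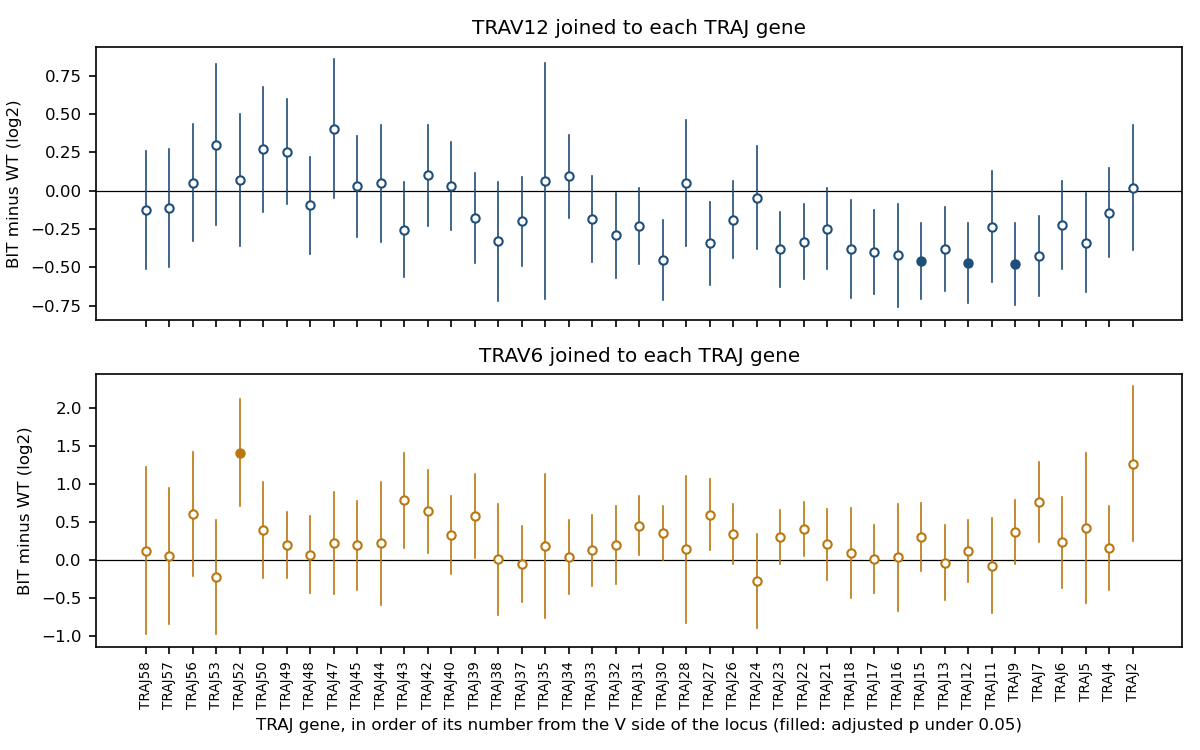
Difference in share of clonotypes (BIT minus WT, log2) with its 95% interval for TRAV12 (top) and TRAV6 (bottom) joined to each of 43 TRAJ genes, in order from the V side of the locus to the side of the constant region. TRAV12 pairs lie around 0 on the left and mostly below 0 on the right, and TRAV6 pairs lie mostly above 0 throughout. Filled points have an adjusted p under 0.05.

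TRAV6-TRAJ52 was the called pair with the smallest p. It had 0, 2, 10 and 7 clonotypes in WT and 33, 12, 23 and 30 in BIT mice, or 0%, 0.0346%, 0.0663% and 0.0415% against 0.126%, 0.128%, 0.125% and 0.131%. The BIT mice were close to each other and all above the WT mice (log2 difference 1.42, 95% interval 0.71 to 2.12, edgeR's adjusted p = 0.0472). Of 43 TRAV6 pairs, 38 had a positive difference (median 0.21). The other higher pair, TRDV1-TRAJ49, joins a δ chain V gene to an α chain J gene. It had 0, 0, 2 and 0 clonotypes in WT and 19, 3, 6 and 5 in BIT mice. No WT library held the 5 clonotypes that the filter on low counts asks for, so the pair was tested only because other groups hold more of it, and its edgeR adjusted p of 0.0486 is no support for a difference. Without that filter the adjusted p was 0.0638. Of its 33 BIT clonotypes 19 came from BIT replicate 1 and both WT clonotypes from WT replicate 3. The log2 difference was 2.84 in all 8 mice and 2.24 without BIT replicate 1 (adjusted p = 0.421), and without WT replicate 3 no WT clonotype was left. TRDV1 as a whole held 0.246% in WT and 0.364% in BIT mice (edgeR's unadjusted p = 0.0320). Of the 588 pairs, 29 did not overlap between the groups (4.93%). All 5 pair calls were lost without WT replicate 1 or 2 or BIT replicate 1, 2 or 5, and in molecules.

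The share of a pair's molecules held by its most abundant CDR3 differed between the called pairs. In the 3 TRAV12 pairs this CDR3 is the sequence printed above, and over the 8 mice it held 0.495% to 9.55% of the pair's molecules for TRAJ15, 5.10% to 16.9% for TRAJ12 and 3.88% to 15.1% for TRAJ9. With it left out, TRAV12-TRAJ15 held 2.04% ± 0.218 of molecules in WT and 1.40% ± 0.112 in BIT mice, TRAV12-TRAJ12 1.56% ± 0.126 and 1.22% ± 0.225, and TRAV12-TRAJ9 1.52% ± 0.271 and 1.08% ± 0.0640. For TRAV6-TRAJ52 the printed sequence held 6.53%, 19.4%, 0% and 3.82% of the pair's molecules in BIT replicates 1, 2, 4 and 5 and 0% in the 3 WT mice with the pair. Without it the pair held 0.0297% ± 0.0248 and 0.0807% ± 0.0104. TRDV1-TRAJ49 was spread over 34 distinct nucleotide CDR3s, 33 of them found in 1 library, but its most abundant CDR3 held 80.0% of the pair's molecules in BIT replicate 2, the mouse it came from. Without that CDR3 the pair held 0.00401% ± 0.00803 of molecules in WT and 0.0289% ± 0.0209 in BIT mice.

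Pairing beyond what the usage of V and of J alone predicts was then tested. edgeR called 0 of 585 TCRα pairs (0%), with 26 at an unadjusted p under 0.05. DESeq2 was not run on this test. The smallest adjusted p was 0.180, for TRAV8-TRAJ42, which held 0.0815%, 0.0519%, 0.0663% and 0.0296% of clonotypes in WT and 0.0114%, 0%, 0.0217% and 0.0218% in BIT mice. The 43 TRAV12 pairs had a median of 0.04 and the 43 TRAV6 pairs a median of -0.07 on this scale, beside -0.01 for all pairs.

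The TCRβ chain gave no call in gene usage. edgeR called 0 of 23 TRBV genes (0%) and 0 of 12 TRBJ genes (0%), as did DESeq2, and in both families 0 genes had an unadjusted p under 0.05. TRBV19 had the smallest p, with 3.05%, 4.80%, 4.04% and 5.91% of clonotypes in WT and 5.53%, 5.402%, 5.29% and 6.05% in BIT mice (log2 difference 0.29, 95% interval -0.12 to 0.71, edgeR's adjusted p = 0.796). TRBV16, the most used V gene, held 11.9% ± 3.10 in WT and 12.9% ± 1.75 in BIT mice. TRBV3 held 6.69% ± 0.693 and 5.92% ± 0.413, TRBV2 4.56% ± 0.764 and 3.86% ± 0.672, and TRBV4 6.64% ± 1.15 and 5.90% ± 0.473. A difference of 2-fold either way was outside the 95% interval for 18 of the 23 TRBV genes, and not for the other 5, among them TRBV5 and TRBV12-1. TRBJ differences were bounded more tightly, between -0.10 and 0.10 with no interval past 0.29 on either side. TRBJ2-7, the most used J gene, held 22.4% ± 0.930 in WT and 22.8% ± 1.17 in BIT mice. Mice with the number 4 were the highest of both groups in use of the TRBJ2 cluster, with 73.6% of WT and 74.8% of BIT TCRβ clonotypes, against 69.9% to 72.4% in the other 6.

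**Figure D4:**
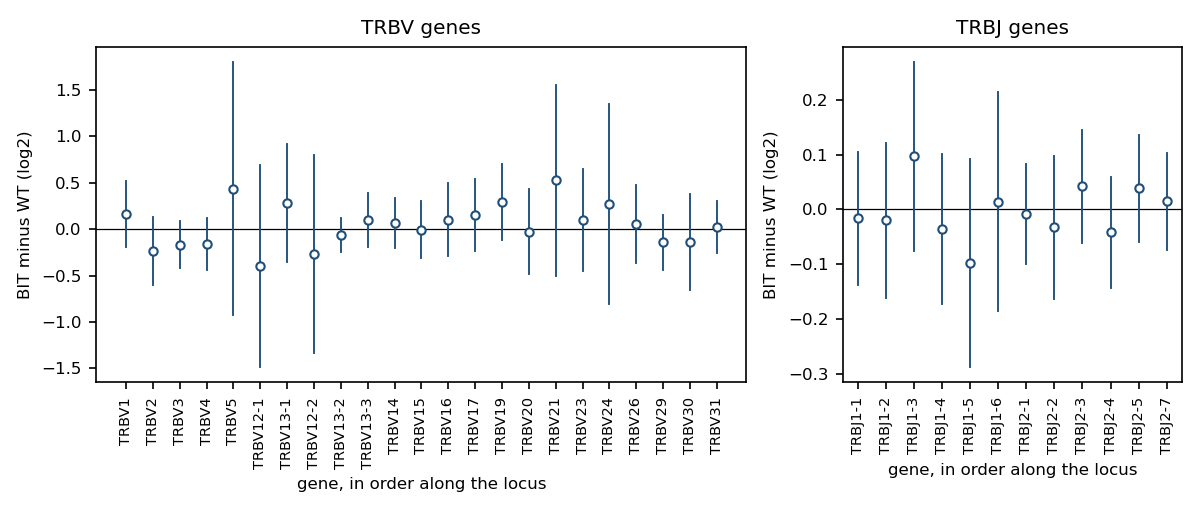
Difference in share of clonotypes (BIT minus WT, log2, with 95% interval) for 23 TRBV genes (left) and 12 TRBJ genes (right), in order along chromosome 6. Every interval holds 0, and the TRBJ axis spans a far smaller range than the TRBV axis.

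TCRβ pairs gave no call either. edgeR called 0 of 248 TRBV-TRBJ pairs (0%), with 0 at an unadjusted p under 0.05, and DESeq2 called 0. TRBV1-TRBJ2-2 had the smallest p (0.218%, 0.213%, 0.199% and 0.159% in WT, 0.249%, 0.317%, 0.212% and 0.272% in BIT mice, edgeR's adjusted p = 0.999), followed by TRBV3-TRBJ2-5 (means 0.725% and 0.443%) and TRBV5-TRBJ1-2 (0.0211% and 0.0543%). The most abundant CDR3 of these pairs was found in 1 library each. Without it the means were 0.210% and 0.256% of molecules for TRBV1-TRBJ2-2, 0.637% and 0.426% for TRBV3-TRBJ2-5, and 0.0131% and 0.0496% for TRBV5-TRBJ1-2. Groups without overlap were seen for 4 of the 248 pairs (1.61%). The 95% interval lay within 1 log2 unit of no difference for 161 of the 248 pairs, so larger differences were not bounded for the rest. For pairing beyond single-gene usage edgeR called 0 of 248 pairs (0%), with 13 at an unadjusted p under 0.05. The smallest adjusted p was 0.254, for TRBV3-TRBJ2-5 (log2 difference -0.42). This pair passed without WT replicate 4 (-0.60, adjusted p = 0.00507) or without BIT replicate 1 (-0.51, adjusted p = 0.0118).

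Out of frame, edgeR called 1 of 23 TRBV genes (4.35%). TRBV5, at chr6:41039266-41039737 on GRCm39, had 1, 3, 12 and 10 out-of-frame clones in WT and 54, 25, 34 and 38 in BIT mice. As a share of out-of-frame TCRβ clones this was 2.94%, 1.99%, 2.97% and 1.78% in WT and 5.37%, 5.48%, 5.57% and 4.28% in BIT mice, without overlap (log2 difference 1.16, 95% interval 0.53 to 1.802, edgeR's adjusted p = 0.00858). The call was lost without WT replicate 4 (0.91, adjusted p = 0.613), in molecules (1.28, adjusted p = 0.896) and after thinning (0.80, adjusted p = 0.930). In-frame TRBV5 held 0.748% ± 0.700 in WT and 1.09% ± 0.634 in BIT mice, where no call was made (log2 difference 0.44, 95% interval -0.92 to 1.799). edgeR called 0 of 22 V subgroups (0%), 0 of 43 TRAJ genes (0%) and 0 of 12 TRBJ genes (0%) out of frame, with 3, 7 and 3 at an unadjusted p under 0.05, and DESeq2 called 0 in all 3. Groups did not overlap for 3 of the 22 V subgroups (13.6%) and 3 of the 23 TRBV genes (13%) out of frame. Among J genes this held for 3 of the 43 TRAJ genes (6.98%) and 2 of the 12 TRBJ genes (16.7%).

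CDR3 length gave no call. Mean CDR3α length over clonotypes was 13.55, 13.52, 13.59 and 13.60 residues in WT and 13.63, 13.58, 13.62 and 13.62 in BIT mice, means of 13.57 ± 0.0371 and 13.61 ± 0.0243 (exact permutation p = 0.0857, adjusted p = 0.686). Mean CDR3β length was 13.89 ± 0.0264 and 13.90 ± 0.0434 (exact permutation p = 0.8286). edgeR called 0 of 14 length classes of CDR3α (0%) and 0 of 14 of CDR3β (0%), with 0 at an unadjusted p under 0.05 in both, and DESeq2 called 0. The commonest CDR3α length of 14 residues held 30.5% ± 0.761 in WT and 30.0% ± 0.395 in BIT mice (log2 difference -0.02, 95% interval -0.07 to 0.03). The same length of CDR3β held 30.6% ± 0.810 and 29.9% ± 0.577. CDR3α of 16 residues came closest to a difference, with 6.39% ± 0.435 and 6.93% ± 0.317 (0.10, 95% interval -0.01 to 0.20, edgeR's adjusted p = 0.691).

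Inserted bases gave 1 call, in a rare class. TCRα joins held a mean of 2.10, 2.23, 2.34 and 2.38 inserted bases in WT and 2.42, 2.28, 2.36 and 2.40 in BIT mice (exact permutation p = 0.2, adjusted p = 0.686). Joins with no inserted base made up 29.7%, 27.1%, 25.3% and 24.4% in WT and 23.9%, 26.7%, 24.5% and 24.4% in BIT mice (exact permutation p = 0.2, adjusted p = 0.686). WT replicates 1 and 2, the shallowest libraries, were the highest. Weighted by molecules the means of joins with no inserted base were 31.4% ± 1.51 and 31.2% ± 0.589. edgeR called 1 of 15 classes (6.67%), joins with 13 inserted bases, which rested on 1, 1, 5 and 2 clones in WT, where 1 library reached the 5 clones of the filter, and 26, 9, 11 and 13 in BIT mice (log2 difference 1.73, adjusted p = 0.0285). The class was thus tested only because other groups hold more of it, and its adjusted p is no support for a difference. DESeq2 called 0, and the call was lost in molecules and without any 1 of 4 mice (WT replicate 2 or 4, BIT replicate 1 or 2). The TCRβ joins held a mean of 2.98 ± 0.0454 inserted bases in WT and 2.96 ± 0.0321 in BIT mice (exact permutation p = 0.400), and edgeR called 0 of 16 classes (0%), with 0 at an unadjusted p under 0.05 and 0 by DESeq2.

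**Figure D5:**
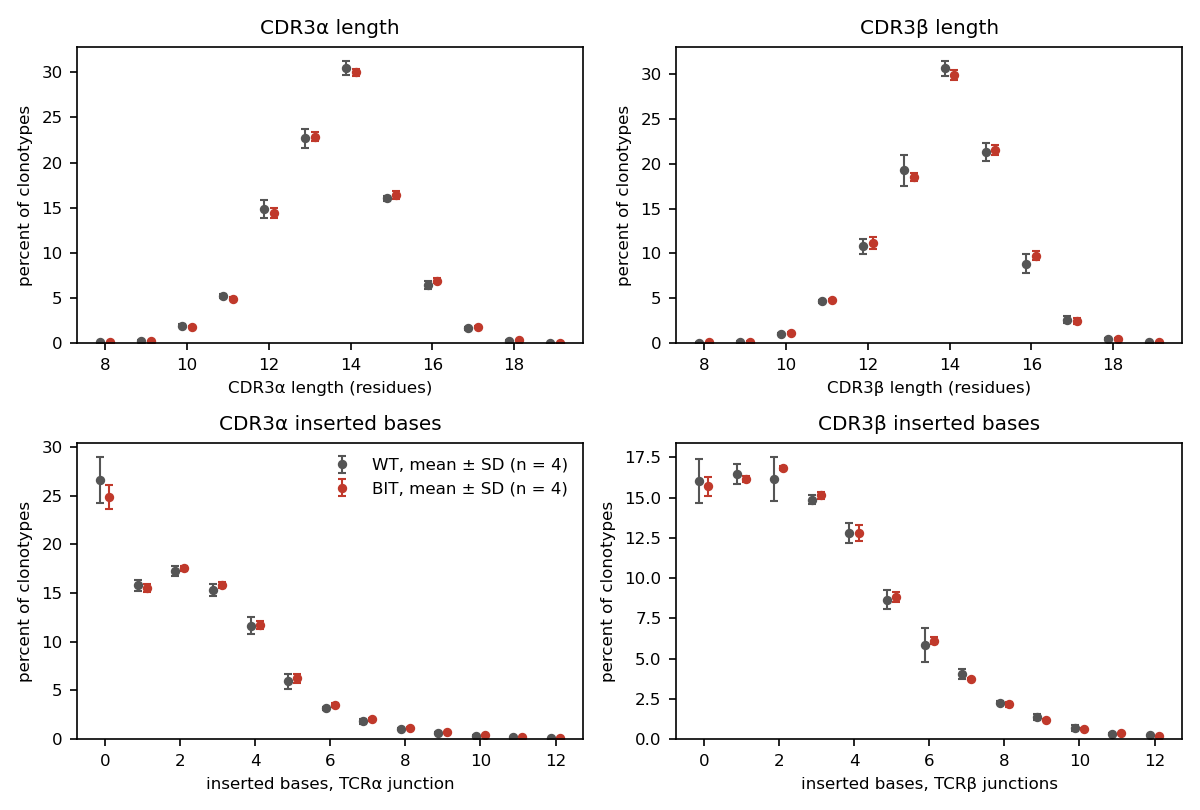
CDR3 length in residues (top) and number of inserted bases (bottom) for TCRα (left) and TCRβ (right), as percent of clonotypes, mean ± SD of 4 WT mice (grey) and 4 BIT mice (red). The group means lie close to each other at every length and number of bases plotted, such as 30.5% and 30.0% at 14 residues of CDR3α. TCRα joins with 13 inserted bases, the only called class, lie outside the plotted range.

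In the central part of CDR3α, with 3 residues left out at each end, arginine and aspartate were less frequent in BIT mice by small amounts. Arginine, a positively charged residue, made up 5.27%, 5.36%, 5.29% and 5.48% of central residues in WT and 5.12%, 4.96%, 5.10% and 5.16% in BIT mice (log2 difference -0.08, 95% interval -0.12 to -0.03, edgeR's adjusted p = 0.0208). Aspartate, a negatively charged one, made up 4.85%, 4.40%, 4.59% and 4.44% in WT and 4.25%, 4.38%, 4.06% and 4.32% in BIT mice (-0.09, 95% interval -0.15 to -0.03, adjusted p = 0.0396). Neither pair of groups overlapped. These were 2 of 20 residues called (10%), and DESeq2 called 1, arginine. In a fit of WT and BIT mice alone neither was called. Leaving out each mouse in turn kept the arginine call in 7 of 8 fits (lost without WT replicate 4, adjusted p = 0.121) and the aspartate call in 3 of 8. With TRAV12 clones left out both differences were -0.04 with an adjusted p of 0.711, an alternative chosen after seeing the data. In the TRAV12-TRAJ15 sequence above an aspartate is coded within the V part, by gat. In CDR3β edgeR called 0 of 20 residues (0%), with 3 (valine, glutamine and tryptophan) at an unadjusted p under 0.05 and 0 by DESeq2.

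Other properties of the joins were compared mouse by mouse, as 40 measures in all, and with 4 mice against 4 an exact permutation test cannot go below p = 0.0286. No measure passed after adjustment. At this lowest p a single measure cannot pass among 40, so for 1 measure alone that outcome was fixed in advance. The share of TCRα molecules held by the 10 most abundant clonotypes was the only one whose groups did not overlap, at 4.75%, 2.97%, 3.64% and 2.49% in WT and 1.94%, 1.82%, 1.70% and 2.26% in BIT mice (exact permutation p = 0.0286, adjusted p = 0.686). This share depends on how many clonotypes a library holds, which also differed. In TCRβ it was 5.64%, 1.14%, 1.06% and 0.533% in WT and 0.513%, 0.526%, 0.790% and 0.521% in BIT mice. Hydrophobic residues at both CDR3 positions 6 and 7 (the first cysteine is position 1), a feature linked to self-reactive receptors, made up 1.38% ± 0.181 of TCRβ clonotypes in WT and 1.41% ± 0.127 in BIT mice (exact permutation p = 0.686). Cysteine, phenylalanine, isoleucine, leucine, methionine, valine, tryptophan and tyrosine counted as hydrophobic. Mean hydropathy of the central residues was -1.51 ± 0.0164 and -1.49 ± 0.0216 for CDR3α (exact permutation p = 0.2) and -1.27 ± 0.0156 and -1.25 ± 0.00901 for CDR3β (exact permutation p = 0.114). A cysteine in the central part, another such feature, was found in 0.122% to 0.373% of TCRα clonotypes in WT mice. It was found in 0.246% to 0.308% in BIT replicates 1, 2 and 5 but in 0.974% in BIT replicate 4, and for TCRβ in 0.106% to 0.133% and 0.668%. BIT replicate 4 alone set the higher BIT mean.

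The differences of BIT from WT mice were set against mice lacking β5i, which have the loss of β5i in common with BIT mice. TRAV12 held 24.6% ± 2.58 in β5i-KO mice (n = 5), and BIT minus β5i-KO was -0.11 (95% interval -0.26 to 0.04, edgeR's adjusted p = 0.619). TRAV6 held 5.90% ± 0.846 in β5i-KO mice (0.16, 95% interval -0.05 to 0.36, adjusted p = 0.619). TRAV12-1 held 14.4% ± 2.74, with a difference of -0.23 (95% interval -0.46 to 0.00, adjusted p = 0.830), and TRAV7D-5 held 2.09% ± 0.893, with a difference of -0.02 (95% interval -0.40 to 0.37, adjusted p = 0.998). Out-of-frame TRBV5 held 5.59% ± 1.11 of out-of-frame TCRβ clones in β5i-KO mice, with a difference of -0.23 (95% interval -0.63 to 0.17, adjusted p = 0.551). None of these features was called between BIT and β5i-KO mice, so none of their differences from WT is shown to be particular to BIT mice. For the called pairs, residues and inserted bases this comparison is not given here.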

How the data were processed

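RNA of sorted CD8 T cells was made into libraries with the SMARTer Mouse TCR a/b kit, and MiXCR was used by the authors to assemble clones from the reads, with a version and settings not given in the sources used here. Each deposited table holds the clones of 1 chain of 1 mouse, with counts of reads and of unique molecules that the authors did not normalise. The labels name build mm10, the tables hold no coordinates, and gene positions were taken from GENCODE vM39 (GRCm39). A clone listing several V genes was given to the first. Inserted bases were read from MiXCR's junction points.

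Samples were grouped by genotype in the labels. The protocol speaks of individual mice per group. Of 64 pairs of libraries of 1 chain and group, 0 shared most of their clones and read counts. Depth was 2633867 to 8480570 TCRα reads and 886642 to 2856711 TCRβ reads per library. For clonotype counts the quasi-likelihood test of edgeR 4.0.16 in R 4.3.3 was used, scaled by library size, in 1 fit of 17 libraries (4 BIT, 4 WT, 5 β5i-KO and 4 β5t-KO mice), for features with at least 5 clonotypes in at least 4 libraries, with Benjamini-Hochberg adjustment within each family and a threshold of 0.05. Pairing beyond single-gene usage used the product of the V and J totals as an offset. Measures per mouse were compared with exact permutation tests, two-sided, adjusted over the 40 measures. Scripts were tested on simulated data. Python 3.11.15, NumPy 2.4.6, pandas 2.3.3 and Matplotlib 3.10.9 were used.

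Named features are those called, at most 10 per family, filled up to 5 by the smallest p. The comparison, lists and rules were chosen with earlier results of these data known. Alternatives were TMM, DESeq2 1.42.0, no filter, fits of WT and BIT mice alone, BIT replicate 3 included, a replicate block, unique molecules, thinned molecules, clones of at least 2 molecules, nucleotide clonotypes, clones listing 1 V gene, 4 residues left out at each CDR3 end and each mouse left out in turn. Leaving out TRAV12 clones was added after seeing the data. WT replicate 5 and β5t-KO replicate 5 were not analysed here.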

Additional observations from a re-analysis of the deposited data

Results flagged for a closer look

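Within each group of 4 mice the gap between the most extreme mouse and its nearest neighbour was divided by the range of the group and set against Dixon's 95% critical value for 4 values. Of 250 groups tested 23 passed, where chance flags about 1 in 20.

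BIT replicate 4 stood apart in both chains. A cysteine in the central part of CDR3 was found in 0.974% of its TCRα clonotypes (0.785% of molecules) and in 0.668% of its TCRβ clonotypes (0.612% of molecules), each the highest BIT value. Hydrophobic residues at positions 6 and 7 were found in 2.07% of its TCRα and 1.604% of its TCRβ clonotypes. Cysteine counted as hydrophobic, so these shares can hold some of the same clonotypes as the cysteine shares. Its mean rank of the TCRα J gene was 34.9, the highest of the BIT mice, and that of the V gene 73.7, the lowest. WT replicate 4 stood at the same ends of the WT mice, with a J rank of 34.8 and a V rank of 74.3. BIT replicate 4 also held the highest BIT share of tryptophan in CDR3β (2.23%), of TRBJ2-4 (9.76%) and of molecules in the 10 most abundant TCRβ clonotypes (0.790%). Its share of CDR3β of 14 residues (29.0%) was the lowest of the BIT mice.

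WT replicate 4 had the lowest mean TCRα V rank of the WT mice (74.3), and the highest mean TCRβ J rank (9.00), mean TCRβ V rank (16.9) and share of TRBJ2 (73.6%). WT replicate 1 held 5.64% of TCRβ molecules in its 10 most abundant clonotypes and 14.7% TRBJ2-4 among out-of-frame clones. Its TCRβ library was the shallowest of the 8. WT replicate 2 held 16.4% CDR3α of 15 residues, and WT replicate 3 was the only WT mouse with TRDV1-TRAJ49 (0.0133% of clonotypes). BIT replicate 1 held 0.266% TRAV15-2-DV6-2 and 0.104% TRBV5-TRBJ1-2, the highest of the BIT mice, and BIT replicate 5 held 4.28% TRBV5 among out-of-frame clones, the lowest.

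Aspartate in the central part of CDR3α also differed between BIT and β5t-KO mice, by -0.16 on the log2 scale (95% interval -0.23 to -0.09, edgeR's adjusted p = 0.00119), while β5t-KO minus WT was 0.06 (adjusted p = 0.251). The difference from WT was thus not the same in these 2 groups by edgeR's test of one against the other.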

How the results depend on the processing

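Counts of calls between BIT and WT mice moved with the processing. The TCRα V subgroups gave 2 calls. They gave 1 with TMM, without the filter, with BIT replicate 3 included, in molecules or for clones of at least 2 molecules, 8 in a fit of WT and BIT mice alone, 0 for clones listing 1 V gene, and 0 to 6 with 1 mouse left out. The TRAV genes gave 2. They gave 1 with TMM, DESeq2 or molecules, 4 for clones of at least 2 molecules, 8 with WT and BIT alone, 0 for clones listing 1 V gene, and 0 to 3 with 1 mouse left out. The TRAV-TRAJ pairs gave 5. They gave 0 with TMM, DESeq2, no filter, molecules, thinned molecules, clones of at least 2 molecules or clones listing 1 V gene, 1 with WT and BIT alone, 2 with nucleotide clonotypes, and 0 to 7 with 1 mouse left out. CDR3α residues gave 2. They gave 1 with TMM, DESeq2, thinned molecules or clones of at least 2 molecules, 0 with WT and BIT alone or without TRAV12 clones, and 0 to 2 with 1 mouse left out. CDR3α inserted bases gave 1, and 0 with DESeq2, molecules, thinned molecules or clones of at least 2 molecules, and 0 to 1 with 1 mouse left out. Out-of-frame genes gave 1, and 0 in molecules or thinned molecules, and 0 to 2 with 1 mouse left out. Pairing beyond single-gene usage gave 0 to 1 in either chain with 1 mouse left out, and the other families gave 0 in every alternative but the replicate block. The cause of these changes was not tested. Single called features lost their call in 127 cases, and none of them changed direction.

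WT and BIT mice share the numbers 1, 2 and 4. The correlation of their deviations ran from -0.14 to 0.19 over TRAV genes, -0.11 to 0.65 over TRAJ genes and -0.32 to 0.39 over TRBV genes, so the numbers were not taken as pairs, although over TRBJ genes it ran from 0.37 to 0.64. TRBJ genes gave 0 calls with and without the block. In no family did every mouse correlate best with its own number. Over TRBJ genes WT replicates 1, 2 and 4 each did (0.37, 0.41 and 0.64). So did BIT replicates 2 and 4, but BIT replicate 1 correlated best with WT replicate 3 (0.48). Over TRAJ genes the mice numbered 4 correlated best with each other (0.65). Whether mice of the same number share a batch was not tested. With the replicate block the calls were 7 V subgroups, 5 TRAV genes, 9 TRAV-TRAJ pairs, 3 CDR3α residues, 2 CDR3β residues, 1 TRBV-TRBJ pair beyond single-gene usage (TRBV3-TRBJ2-5, -0.66, edgeR's adjusted p = 0.000435) and 2 out-of-frame genes. Depth limits the rare pairs and the out-of-frame genes, with 34 out-of-frame TCRβ clones in WT replicate 1.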
